A study of Rattus norvegicus with 105 samples.

Results

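Muscle carrying cobalt pellets was compared with muscle carrying tantalum pellets 3 months after implantation. The comparison uses 6 of 105 arrays, the 3 of cobalt and the 3 of tantalum at that month, chosen by the metal and month in the sample titles, and all 22954 probe sets of 22977 that are not array controls. The rats were male Sprague-Dawley animals, about 30 days old when bought and given at least 2 weeks to settle before surgery. Every rat of every group carried 4 metal cylinders in the gastrocnemius, the large calf muscle, 2 per hind limb, each 1 mm across and 2 mm long. The metal was cobalt, tantalum (the implanted sham control), nickel, or 1 of 6 others used here as a second reference, namely aluminum, copper, depleted uranium, iron, lead and tungsten. Of the 8 rats assigned to each metal and month, RNA of 2 to 3 was pooled for an array, and 250 ng were hybridised to a Clariom S Rat array, so the replicate error throughout is that of pooled arrays, not of single rats. The labels do not settle whether the 3 arrays of a group came from wholly separate pools.

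Cobalt ions are a classic chemical trigger of the hypoxia-inducible factor, because they block the enzymes that mark it for destruction. They also cause oxidative stress, to which cells answer with heme oxygenase and other targets of the factor NRF2, and metals that displace zinc raise metallothioneins. An implant that sheds such ions draws macrophages, and may draw T cells, which recognise antigen held on MHC molecules. Interferon gamma, made by T and natural killer (NK) cells, raises MHC molecules and the chemokines CXCL9, CXCL10 and CXCL11, which attract cells bearing CXCR3. CXCL13 attracts B cells bearing CXCR5 into follicles.

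Values below are log2 intensities, 1 per array in the order replicate 1, 2, 3, and differences are cobalt minus tantalum on the log2 scale ± SE of the model. "Rose" and "fell" are used for probe sets with a Benjamini-Hochberg adjusted p below 0.05 in limma over all 22954 probe sets. Levels are compared within a gene across arrays, never between genes. Where a gene lay near the array's background with tantalum, as Cr2, Klrk1, Cxcl11, Trat1 and Gpr174 did, the difference depends on that background and no fold is given. In bulk tissue, more cells of a type and more RNA per cell cannot be told apart.

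The 6 arrays resembled each other in overall signal. Array medians were 6.50 to 6.51 for cobalt and 6.43 to 6.47 for tantalum. The array's own background probe sets had medians of 3.99 to 4.17 on these arrays, and 90.0% to 90.9% of probe sets lay above them. The tissue was skeletal muscle by its markers. Acta1, the skeletal actin, read 14.06, 14.04 and 14.05 with cobalt against 14.10, 14.05 and 14.09 with tantalum, and Ckm, Myh4 and Pvalb of fast fibres lay between 13.11 and 13.72 on all 6 arrays. Among the tantalum arrays, replicate 3 was lower than the others for a set of macrophage-linked genes. Mmp12, the macrophage elastase, read 9.19, 10.21 and 5.16 with tantalum, and Cxcl13 read 8.19, 9.80 and 5.64. Differences in such genes depend on which tantalum pool they are measured against.

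In all, 1254 probe sets changed, which is 5.46% of those tested. Of these 1119 rose (4.87%) and 135 fell (0.588%). Increases were also larger: 454 rose by at least 2-fold (1.98%), among them 74 by 4 to 8-fold and 32 by at least 8-fold, while 8 fell by at least 2-fold (0.0349%) and 0 by more than 4-fold. The median difference over all probe sets was -0.052. The probe sets that rose had a median level of 6.41 with tantalum and 7.48 with cobalt, and a median SD over the 3 arrays of 0.176 and 0.166 in cobalt and tantalum muscle. For 465 of the 1119, all 3 cobalt arrays lay above each of the other 102 arrays of the study; this held for 493 of all 22954 probe sets. A full separation of the 6 arrays, with cobalt on top, occurred in 11.1% of probe sets, and with cobalt below in 15.1%, so a lack of overlap alone was common.

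Of the 32 probe sets that rose by at least 8-fold, 24 have no gene symbol here. The largest difference, 8.32 ± 0.83, belonged to the unnamed probe set TC0600003320.rn.2, which read 13.38, 12.92 and 13.23 with cobalt and 4.46, 5.09 and 5.04 with tantalum (adjusted p = 4.05e-13). TC0400004145.rn.2, also unnamed, read 12.44, 12.16 and 12.46 against 5.72, 5.56 and 6.18 (6.54 ± 0.63, adjusted p = 7.45e-14). The first lay in the dimmest 30% of the array with tantalum and the second somewhat above it, and both were chosen for mention after their values were seen. With nickel pellets they read 13.28, 13.11 and 13.03, and 12.91, 12.58 and 12.05.

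Among named genes, the 20 with the largest differences were led by Cxcl13, the B cell chemokine, at 12.07, 11.24 and 11.79 with cobalt, all above the tantalum values given above despite their spread (3.82 ± 0.67, adjusted p = 1.15e-05). Hmox1, which breaks down heme, followed. Several of the 20 belong to no gene list used here. Slpi, an inhibitor of neutrophil elastase, rose from 4.61, 5.10 and 5.15 to 7.97, 7.96 and 8.36, a difference of 3.14 ± 0.25 or 8.84-fold (adjusted p = 4.79e-17). Rarres1, a gene first found through its response to retinoic acid, differed by 2.95 ± 0.22, and Plac8, a small cysteine-rich protein of leukocytes and placenta, by 2.92 ± 0.22. B3gnt5, which builds the core of lacto-series glycolipids, differed by 2.65 ± 0.21, and Cytip, a cytohesin-binding protein of leukocytes, by 2.65 ± 0.29. LOC100910973, listed as a long noncoding RNA in the RefSeq gene table, differed by 2.58 ± 0.24 from a level already at 8.87 to 8.97 with tantalum.

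**Figure D1:**
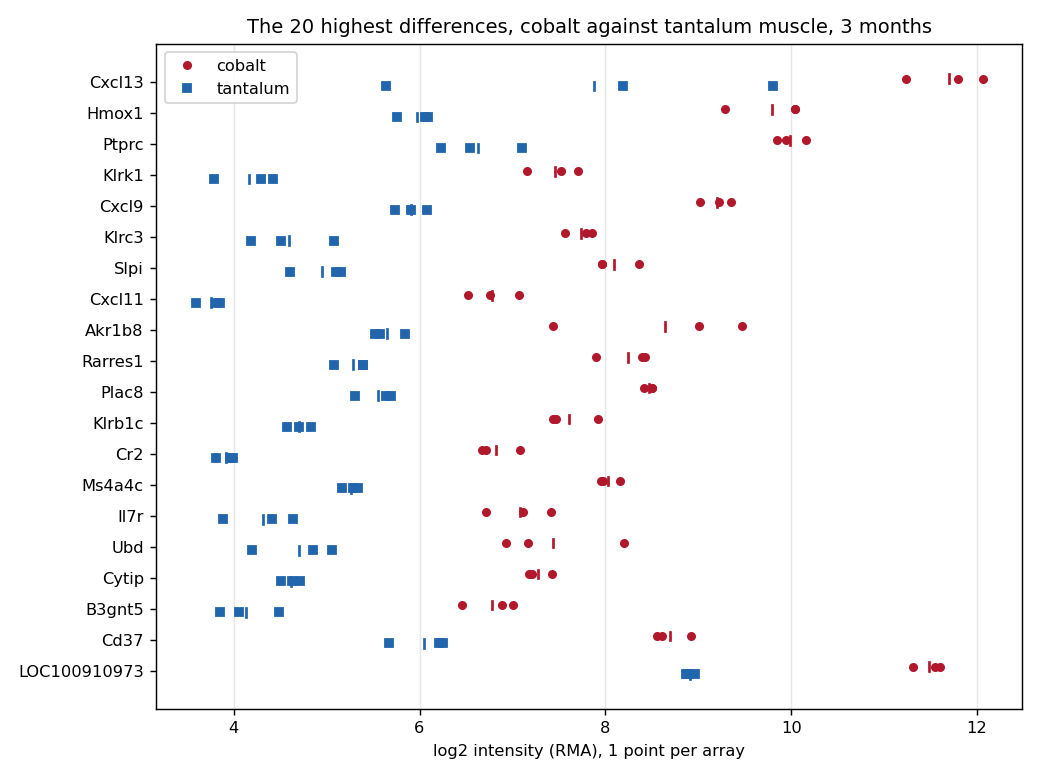
Log2 intensity (x axis) on each of the 6 arrays for the 20 named genes with the largest differences (y axis); points are arrays and short bars are group means, cobalt as circles and tantalum as squares. All 3 cobalt arrays lie above all 3 tantalum arrays for each gene, as the rule that chose them requires, and Cxcl13 has the widest tantalum spread, from 5.64 to 9.80.

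Oxidative stress genes rose in a small subset. Hmox1 read 9.29, 10.04 and 10.04 with cobalt and 6.09, 5.76 and 6.06 with tantalum, a 14.1-fold difference (3.82 ± 0.31, adjusted p = 2.81e-17). Akr1b8, an aldo-keto reductase that clears reactive aldehydes, read 7.44, 9.01 and 9.47 against 5.57, 5.84 and 5.52 (3.00 ± 0.32, adjusted p = 5.27e-12). Both genes were higher on every cobalt array, with cobalt replicate 1 the lowest for each. Of 35 measured genes of the NRF2 list 5 rose and 0 fell, with a list median of 0.05. The others that rose were Tkt (0.94 ± 0.13) and Taldo1 (0.51 ± 0.14), enzymes of the pentose phosphate pathway, and Slc7a11 (1.04 ± 0.22), which imports cystine. Taldo1 did not pass without cobalt replicate 3 and Slc7a11 did not pass when only the 6 arrays were fitted. The commonly used NRF2 targets Nqo1 (0.10 ± 0.18), Gclm (-0.09 ± 0.13), Txnrd1 (0.04 ± 0.10) and Srxn1 (-0.06 ± 0.13) did not pass.

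Among 14 measured genes of metallothioneins and zinc transport 4 rose and 1 fell, with a median of 0.12. Mt1, a metallothionein that binds zinc and other metals, read 8.46, 8.45 and 8.84 with cobalt and 7.41, 7.23 and 7.10 with tantalum, 2.52-fold higher (1.33 ± 0.24, adjusted p = 2.69e-05). Slc39a8, a zinc importer, rose by 1.21 ± 0.22, and Slc30a7, which carries zinc into the Golgi, by 0.55 ± 0.11. Mt2A rose by 0.83 ± 0.24 and Mt3, the brain metallothionein, fell by 0.49 on the log2 scale; Mt2A lost its call without any 1 of 4 arrays (cobalt replicates 2 and 3, tantalum replicates 1 and 2), and Mt3 did not pass without any of 5 of the 6 arrays. In the iron and heme list 5 of 25 rose. Besides Hmox1 these were Slc11a1, a metal transporter of the phagosome (1.26 ± 0.28), Slc40a1, the iron exporter (0.89 ± 0.21), Ftl1, the ferritin light chain (0.94 ± 0.26), and Cp, ceruloplasmin (0.69 ± 0.22). Without cobalt replicate 3 the count was 2, because Slc40a1, Ftl1 and Cp no longer passed. The Ftl1 probe set carried the same values as an unnamed probe set on every array, so its signal may not belong to that gene alone.

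Metal response elements are short promoter letters through which the zinc-sensing factor MTF1 raises metallothioneins. The Mt1 promoter is shown because Mt1 rose and kept its call with each of the 6 arrays left out in turn, with 6 matches to the core TGCACNC or TGCGCNC on either strand in capitals, from 176 to 55 bases before the start. The sequence is RefSeq's for GRCr8, chr19:10832926-10833225, minus strand, 250 bases before to 50 after the start.
Mt1: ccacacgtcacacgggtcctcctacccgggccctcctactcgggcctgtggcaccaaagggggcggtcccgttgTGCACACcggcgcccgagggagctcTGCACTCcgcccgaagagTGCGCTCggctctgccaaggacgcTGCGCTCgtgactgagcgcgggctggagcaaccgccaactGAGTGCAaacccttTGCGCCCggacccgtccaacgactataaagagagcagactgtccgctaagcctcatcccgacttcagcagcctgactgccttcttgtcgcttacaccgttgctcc
This core was searched for after the values were seen, and 31.8% of the promoters of all 12279 named genes that have one in the table hold at least 1 match, against 29.9% of the 632 that rose.

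Targets of the hypoxia-inducible factor did not rise as a list. Of 27 measured members 2 rose, with a median of -0.05, near that of all probe sets. Those were Slc2a1, a glucose transporter (0.63 ± 0.15), and Pgam1, a glycolytic enzyme (0.47 ± 0.14), and without cobalt replicate 3 or without tantalum replicate 3 the count was 0. Vegfa, which drives vessel growth, read 10.90, 10.84 and 10.82 with cobalt and 11.09, 10.83 and 10.84 with tantalum (-0.06 ± 0.11), and Epo, erythropoietin, had a difference of -0.24 ± 0.25. The groups overlap for both. Hif1a, the oxygen-regulated subunit itself, rose by 0.42 ± 0.13 (adjusted p = 0.0294). The core ACGTG stood in 21.2% of promoters of genes that rose and in 22.2% of all.

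Genes of protein folding in the endoplasmic reticulum rose modestly. Pdia4, a disulfide isomerase, read 9.17, 8.94 and 9.13 with cobalt and 7.91, 7.62 and 7.95 with tantalum (1.25 ± 0.13, adjusted p = 3.53e-12). Asns, which makes asparagine, rose by 1.26 ± 0.22, and the chaperones Hsp90b1 and Hspa5 by 0.75 ± 0.15 and 0.46 ± 0.10. In all 7 of 26 measured stress genes rose. The alarm genes of the same response did not pass: Ddit3 (-0.11 ± 0.19), Atf3 (0.26 ± 0.29) and Xbp1 (0.17 ± 0.13).

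Most of the T cell list rose. Of 22 measured surface genes 19 rose and 0 fell, with a median of 1.32. Cd3e, a chain of the T cell receptor complex, read 7.01, 6.56 and 6.97 with cobalt and 4.93, 4.42 and 4.76 with tantalum (2.14 ± 0.21, adjusted p = 2.22e-13). Cd3g, another chain, read 5.90, 6.16 and 6.16 against 4.41, 3.77 and 3.96 (2.03 ± 0.23). The tantalum values lay near the array's background. Both co-receptors were higher, Cd8a by 1.34 ± 0.18, Cd8b by 1.67 ± 0.19 and Cd4, which rat macrophages also carry, by 1.16 ± 0.27. Il7r, the receptor for the survival cytokine IL-7, rose by 2.77 ± 0.25, the adhesion molecule Cd2 by 2.25 ± 0.15 and Trat1, an adaptor bound to the receptor, by 2.40 ± 0.21. Thy1 (0.32), Sit1 (0.13) and Cd52 (-0.07) did not pass.

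The signalling chain behind the receptor followed, with 37 of 40 measured genes higher and a median of 1.46. Lck, the kinase that starts T cell signalling, rose by 1.39 ± 0.20, and Stat4, which carries the IL-12 signal, by 2.14 ± 0.21. Several members serve other leukocytes too: Syk (1.94 ± 0.21) and Btk (1.65 ± 0.24), kinases of B and myeloid cells, the phosphatase Ptpn6 (2.02 ± 0.17) and the actin bundler Lcp1 (2.28 ± 0.22). Zap70, the kinase next to Lck in T cells, rose by 0.88 ± 0.21 but did not pass without cobalt replicate 1. Gpr174, a lysophospholipid receptor of lymphocytes outside the lists, rose from 3.11, 2.60 and 2.77 to 5.34, 5.25 and 4.84.

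Activation and checkpoint genes rose in part, 22 of 34 with a median of 0.68. The shared chains of cytokine receptors led: Il2rb (2.38 ± 0.15) and Il2rg (2.49 ± 0.23), together with Cd69, an early activation marker (2.21 ± 0.23), and Il18r1, the IL-18 receptor (2.13 ± 0.21). Among inhibitory receptors, Ctla4 read 6.10, 6.23 and 6.10 with cobalt and 4.84, 3.91 and 4.43 with tantalum (1.75 ± 0.25), and Pdcd1, PD-1, read 6.70, 6.57 and 6.39 against 5.38, 5.35 and 5.05 (1.29 ± 0.15). Btla rose by 1.61 ± 0.24 and Lag3 by 1.01 ± 0.21. The Pdcd1 probe set repeats the values of an unnamed probe set on all arrays. Foxp3, the factor of regulatory T cells, rose by 0.50 ± 0.15 and did not pass without cobalt replicate 2, cobalt replicate 3 or tantalum replicate 1. The PD-1 ligand Cd274 had a difference of 0.52 ± 0.18 (adjusted p = 0.0672). The cytokine messages themselves did not pass, with Ifng at 5.08, 5.20 and 4.71 against 4.53, 4.50 and 4.78 (0.40 ± 0.20), Il2 at -0.24, Il4 at -0.11 and Il17a at 0.01.

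Several NK receptor genes were among the 20 largest differences. Klrk1, the activating receptor NKG2D, read 7.52, 7.16 and 7.70 with cobalt and 4.42, 3.79 and 4.30 with tantalum (3.29 ± 0.23, adjusted p = 3.54e-20). Klrc3 rose by 3.15 ± 0.19, Klrb1c by 2.91 ± 0.19, Klrc1 by 2.29 ± 0.26 and Klrd1, the partner chain of the Klrc receptors, by 2.22 ± 0.21. The Klrc genes are close in sequence, and whether a probe set reads more than 1 of them was not tested. Hcst, the adaptor that carries the NKG2D signal, rose by 1.54 ± 0.22. Killing genes were split: Prf1, the pore former, rose by 1.14 ± 0.18, Gzmk by 1.41 ± 0.22 and Nkg7 by 1.86 ± 0.17, while Gzma (0.25 ± 0.21) and Gzmb (0.12 ± 0.20) did not pass. Gzmb read 4.23, 4.12 and 4.10 against 4.13, 4.16 and 3.79, near background in both groups. Ncr1, which is largely restricted to NK cells, rose by 0.58 ± 0.16 and did not pass without cobalt replicate 2 or tantalum replicate 3. Of 28 measured members of this list 16 rose.

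B cell genes rose with them, 15 of 23 measured with a median of 1.03. Cr2, the complement receptor of B cells and follicular dendritic cells, read 7.08, 6.72 and 6.67 with cobalt and 3.99, 3.96 and 3.81 with tantalum (2.90 ± 0.17, adjusted p = 8.39e-24). No other array of the study exceeded 4.60 for this gene. Cd79b, a chain of the B cell receptor complex, rose by 1.97 ± 0.20, Cd37 by 2.65 ± 0.23, Blnk by 2.11 ± 0.27 and Cd22 by 1.33 ± 0.15. Factors of B cell fate rose less, Pou2af1 by 1.15 ± 0.19 and Spib by 1.19 ± 0.22, and Pax5 had a difference of 0.45 ± 0.16 (adjusted p = 0.0754). Of the plasma cell markers, Mzb1 rose by 1.26 ± 0.18 and Prdm1 by 0.82 ± 0.18, while Sdc1, the surface proteoglycan of plasma cells, had a difference of 0.02 ± 0.16. Ms4a1, Cd79a and Jchain were not analysed here.

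Genes that organise lymphoid tissue rose for 14 of 30 measured, with a median of 0.55. Beside Cxcl13, its receptor Cxcr5 rose by 1.39 ± 0.22, and the T zone chemokines Ccl19 and Ccl21 by 1.71 ± 0.21 and 1.39 ± 0.23. Ccl19 read 8.29, 7.66 and 6.86 with cobalt and 5.89, 6.20 and 5.60 with tantalum, so the cobalt arrays lay apart from tantalum but also from each other. Their receptor Ccr7 rose by 0.98 ± 0.16, the survival cytokine Il7 by 1.30 ± 0.21, the adhesion molecule Vcam1 by 1.85 ± 0.23 and the integrin chain Itgal by 2.34 ± 0.19. Markers of the high endothelial venules of lymph nodes did not pass. Glycam1 read 5.48, 5.81 and 5.35 against 5.55, 5.70 and 5.34 (0.02 ± 0.22), Madcam1 had a difference of 0.08 ± 0.16 and Chst4 of -0.22 ± 0.22. The lymphotoxin Lta (0.33 ± 0.18) and its receptor Ltbr (-0.11 ± 0.18) did not pass either.

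The chemokines that bind CXCR3 all rose. Cxcl9 read 9.36, 9.02 and 9.22 with cobalt and 5.74, 5.91 and 6.08 with tantalum (3.29 ± 0.24, adjusted p = 6.73e-19), and Cxcl11 read 6.75, 6.52 and 7.07 against 3.86, 3.59 and 3.81 (3.03 ± 0.20). Cxcl10 rose less, by 1.07 ± 0.17. Cxcr3, the receptor they share, rose by 2.14 ± 0.26 and Cxcr6, with its ligand Cxcl16, by 1.18 ± 0.23 and 1.02 ± 0.18. Among CC chemokines Ccl5 rose by 2.33 ± 0.20, and the monocyte attractants Ccl2, Ccl7 and Ccl12 by 1.80 ± 0.25, 1.98 ± 0.22 and 1.15 ± 0.14. Ccl9 was the only member of either chemokine list to fall, reading 4.98, 5.34 and 5.15 with cobalt and 7.14, 7.69 and 4.86 with tantalum (-1.40 ± 0.37); the groups overlap through tantalum replicate 3, and the call was lost without tantalum replicate 1 or 2. Of 24 CXC and 27 CC genes measured 11 and 9 rose. Among 43 cytokines and cytokine receptors 10 rose, with Il18 (2.34 ± 0.23), Csf2rb (1.59 ± 0.20) and Tgfb1 (1.21 ± 0.20) among them, and Il1b (0.58 ± 0.22), Il6 (0.24 ± 0.22) and Il10 (0.40 ± 0.20) did not pass.

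Antigen presentation rose on both arms. In the rat, MHC molecules are named RT1. Of 13 measured class II genes 7 rose, with RT1-Da at 10.40, 10.33 and 10.67 with cobalt and 7.95, 8.40 and 8.18 with tantalum (2.29 ± 0.23), RT1-Db1 at a difference of 2.11 ± 0.20, and Ciita, the master activator of class II genes, of 1.04 ± 0.17. Of 16 class I genes and partners 11 rose, with a median of 0.80. B2m, the light chain of class I, read 11.90, 11.86 and 12.07 against 10.78, 10.79 and 10.66 (1.20 ± 0.12, adjusted p = 7.66e-13). The immunoproteasome subunits Psmb9 and Psmb8 rose by 1.79 ± 0.15 and 1.56 ± 0.18, and the peptide transporter Tap1 by 0.78 ± 0.12. Heavy chain genes rose by 0.69 (RT1-A2) to 1.64 (RT1-A1), but RT1 genes are close in sequence and their probe sets may read several.

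Of 29 measured targets of interferon gamma 22 rose, with a median of 0.97, and of 33 antiviral genes of type I interferon 13 rose, with a median of 0.49. The difference between the lists was not tested, and many of these genes answer to both interferons. Irf1, the first factor that interferon gamma induces, read 7.36, 7.29 and 7.61 with cobalt and 5.99, 6.20 and 6.15 with tantalum (1.31 ± 0.20, adjusted p = 3.94e-07). The GTPases Gbp2 and Gbp5 rose by 2.00 ± 0.14 and 1.60 ± 0.19, and Ubd, a ubiquitin-like protein, by 2.73 ± 0.39. Of antiviral genes, Mx1 rose by 1.60 ± 0.26, Samhd1 by 1.73 ± 0.17 and Parp14 by 1.60 ± 0.19, while Isg15 (0.45 ± 0.22), Rsad2 (0.26 ± 0.21), Ifit3 (-0.31 ± 0.24) and Oasl (-0.18 ± 0.20) did not pass.

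The promoters of 3 of these genes are shown as examples of the letters that interferon signalling reads, picked after their matches were known; the windows of Psmb9 and Tap1 hold 0 GAS matches. Irf1 holds a GAS match (TTCNNNGAA, the gamma-activated sequence) 142 bases before its start, and Cxcl10 and B2m hold an ISRE match (the interferon-stimulated response element) 243 and 150 bases before theirs. The matches are in capitals, and the sequences are RefSeq's for GRCr8, all on the plus strand: chr10:38417685-38417984 for Irf1, chr14:15988816-15989115 for Cxcl10 and chr3:129549080-129549379 for B2m.
Irf1: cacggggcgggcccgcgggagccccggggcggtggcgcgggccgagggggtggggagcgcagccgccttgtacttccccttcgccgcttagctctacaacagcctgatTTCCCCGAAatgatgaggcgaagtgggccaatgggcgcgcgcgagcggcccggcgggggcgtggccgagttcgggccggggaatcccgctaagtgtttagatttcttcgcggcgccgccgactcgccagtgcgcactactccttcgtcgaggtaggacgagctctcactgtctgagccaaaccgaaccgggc
Cxcl10: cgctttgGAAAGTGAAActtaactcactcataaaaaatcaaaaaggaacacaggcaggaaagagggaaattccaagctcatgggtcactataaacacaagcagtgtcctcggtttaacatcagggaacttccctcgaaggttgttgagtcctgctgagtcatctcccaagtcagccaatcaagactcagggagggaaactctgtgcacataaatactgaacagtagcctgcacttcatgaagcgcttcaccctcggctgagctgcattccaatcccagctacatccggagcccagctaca
B2m: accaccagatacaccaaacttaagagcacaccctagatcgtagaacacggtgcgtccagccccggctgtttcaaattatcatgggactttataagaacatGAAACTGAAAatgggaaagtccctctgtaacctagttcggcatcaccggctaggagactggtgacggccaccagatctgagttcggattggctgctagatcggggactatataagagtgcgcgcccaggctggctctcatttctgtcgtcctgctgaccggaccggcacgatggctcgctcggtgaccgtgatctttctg
Over the 632 genes that rose and have a promoter in the table, 9.0% hold an ISRE match, against 3.3% of all 12279 named genes with one. For GAS the shares were 9.3% and 7.8%, for the kappaB motif of NF-kappaB 13.1% and 8.9%, and for the NRF2 core TGACNNNGC 14.6% and 13.5%. Of the 17 interferon gamma targets that rose and have a promoter here, 8 hold ISRE, 7 GAS and 8 kappaB. Of 11 class I genes that rose 7 hold ISRE, 6 kappaB and 1 GAS. Of 11 genes of the NK list that rose 3 hold ISRE, 3 GAS and 0 kappaB. Of 4 genes of the NRF2 list that rose 0 hold the NRF2 core. Motifs were counted on both strands, ISRE and kappaB matches can overlap other motifs, and a match is a description of these letters only.

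**Figure D2:**
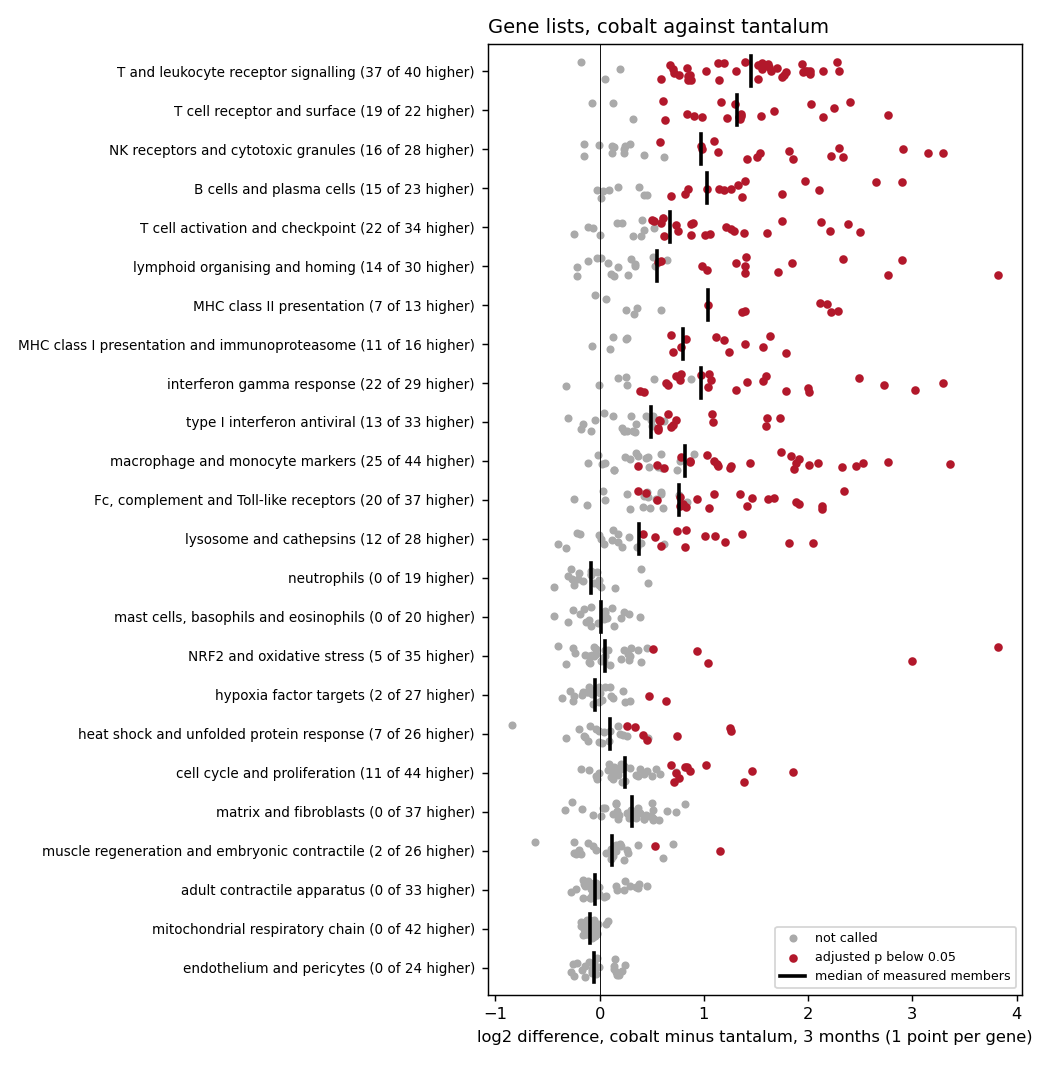
Log2 difference, cobalt minus tantalum (x axis), of each measured gene of 24 lists (y axis, with the number that rose of those measured); red points passed the test, grey points did not, and black bars are list medians. Medians run from 1.46 for T and leukocyte receptor signalling to -0.09 for the mitochondrial respiratory chain.

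Of the macrophage and monocyte list 25 of 44 measured genes rose, with a median of 0.82. The list also holds genes of leukocytes in general, such as Ptprc and Cd53, so its count is not one of macrophages alone. Ptprc, CD45 of all leukocytes, read 9.94, 9.84 and 10.16 with cobalt and 6.54, 7.10 and 6.23 with tantalum (3.36 ± 0.33). Mpeg1, a pore protein of phagocytes, read 8.34, 8.44 and 8.80 against 5.91, 6.53 and 5.55 (2.53 ± 0.30). Cobalt replicate 3 was the highest and tantalum replicate 3 the lowest in Mpeg1, as in the mean of the list, which was 7.85, 7.85 and 8.25 against 6.91, 7.23 and 6.66. Apoe rose by 2.10 ± 0.25, Adgre1 by 1.83 ± 0.28 and C1qb by 1.88 ± 0.24. Cd163, a scavenger receptor of tissue macrophages, had a difference of 0.60 ± 0.21 (adjusted p = 0.0773). Cd68 rose by 1.44 ± 0.29 and Csf1r by 1.14 ± 0.24, and neither passed when only the 6 arrays were fitted. C1qa rose by 0.37 ± 0.11 and did not pass without any 1 of 5 of the arrays.

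Receptors for antibody and complement rose in 20 of 37 cases. Fcgr3a, a low-affinity receptor for antibody, read 7.55, 7.02 and 7.31 with cobalt and 5.31, 5.39 and 4.76 with tantalum (2.13 ± 0.20). C3, the central complement protein, read 7.21, 7.57 and 7.53 against 5.21, 5.52 and 5.18 (2.13 ± 0.23), and C1s, a protease of the classical pathway, rose by 1.67 ± 0.24. Of the Toll-like receptors, Tlr1 rose by 1.61 ± 0.20 and Tlr7, a sensor of RNA, by 1.46 ± 0.24. Lysosomal genes rose in 12 of 28 cases, with Ctse at 2.05 ± 0.18, Ctss, which trims the class II chaperone, at 1.37 ± 0.23, and Ctsk, the collagenase of osteoclasts, at -0.40 ± 0.23 without passing.

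Dendritic cell genes rose in 9 of 20 cases. Xcr1, the marker of cross-presenting dendritic cells, read 5.51, 5.76 and 6.26 with cobalt and 3.95, 3.57 and 3.58 with tantalum (2.14 ± 0.25, adjusted p = 1.34e-10), and its ligand Xcl1 had a difference of 0.23 ± 0.18. Of 19 neutrophil and 20 mast cell, basophil and eosinophil genes 0 rose and 0 fell in limma, with medians of -0.08 and 0.01; 1 neutrophil gene rose in the fit with the replicate number as a block. S100a8 read 4.24, 4.13 and 4.05 against 4.41, 4.40 and 4.38, and the mast cell receptor chain Ms4a2 read 2.80, 2.84 and 3.06 against 2.75, 2.82 and 3.01, both near background. Giant cell and osteoclast genes rose in 4 of 21 cases, among them Chi3l1 (1.78 ± 0.17) and Acp5 (1.10 ± 0.19). Mmp12, with cobalt at 5.78, 7.09 and 6.46, had a difference of -1.74 ± 0.71 (adjusted p = 0.177).

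Of 44 measured cell cycle genes 11 rose, with a median of 0.25. Mki67, present in cycling cells, read 7.70, 7.56 and 7.72 with cobalt and 5.99, 5.96 and 5.46 with tantalum, 3.61-fold higher (1.85 ± 0.22, adjusted p = 3.19e-10). Mcm3 of the replication helicase rose by 1.46 ± 0.17 and Ccna2, a cyclin of S phase, by 1.38 ± 0.24, and the mitotic cyclin Ccnb1 had a difference of 0.25 ± 0.19. Among 36 genes of cell death and the TNF family 14 rose and 1 fell, and without cobalt replicate 1 the count that rose was 9. Bcl2a1, which protects leukocytes from death, rose by 1.98 ± 0.26, Tnfrsf14 by 1.90 ± 0.19, and Casp8 and Casp1 by 1.01 ± 0.16 and 1.41 ± 0.22. Cdkn1a, the p21 inhibitor of the cell cycle, rose by 1.00 ± 0.21.

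**Figure D3:**
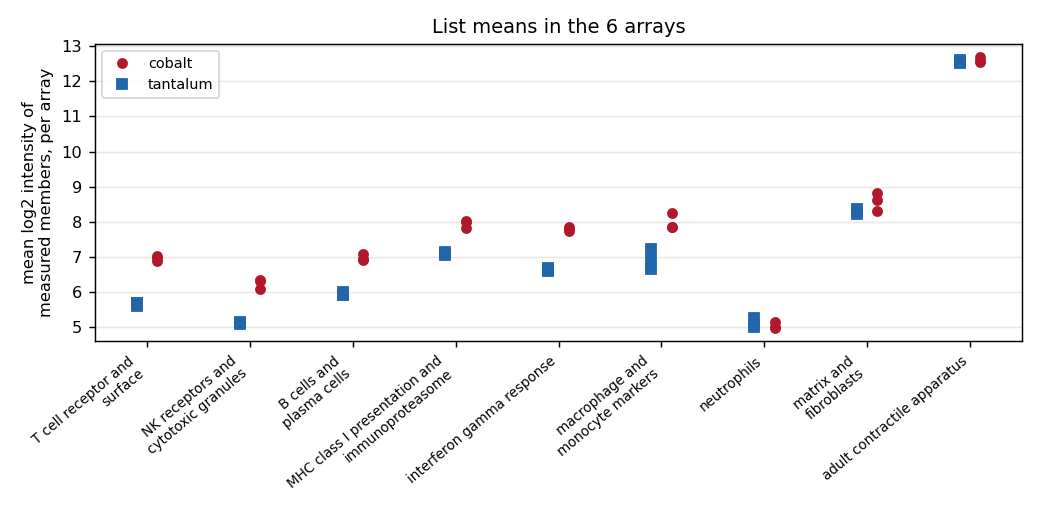
Mean log2 intensity of the measured members of 9 lists (y axis) on each of the 6 arrays, cobalt as circles and tantalum as squares. The 3 cobalt arrays lie above the 3 tantalum arrays for the T, NK, B, class I, interferon gamma and macrophage lists; the groups overlap for neutrophils, matrix and contractile genes.

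Of 33 adult contractile genes and 42 genes of the mitochondrial respiratory chain 0 rose and 0 fell, with medians of -0.04 and -0.09. The list mean of the contractile genes was 12.54, 12.58 and 12.68 with cobalt and 12.62, 12.58 and 12.52 with tantalum. That of the respiratory chain was 10.55, 10.54 and 10.54 against 10.70, 10.59 and 10.60, lower on every cobalt array. All 3 cobalt arrays lay below all 3 tantalum arrays for 18 of the 42 genes, where 15.1% of all probe sets did so. Of 26 measured members of the regeneration list 2 rose, Ankrd1 (1.16 ± 0.31) and Spg21 (0.53 ± 0.15). Spg21 is counted because it was placed in that list, and whether it takes part in regeneration was not tested. Ankrd1 did not pass without cobalt replicate 2 or tantalum replicate 3, and Spg21 not without cobalt replicate 3 or tantalum replicate 2. The embryonic myosin Myh3 read 8.79, 9.01 and 9.11 against 9.05, 8.65 and 8.75 (0.16 ± 0.21), and Myod1, the muscle-determining factor, read 7.43, 7.60 and 7.35 against 8.15, 7.97 and 8.09 (-0.62 ± 0.20, adjusted p = 0.0506). Fbxo32 and Trim63, ligases of muscle wasting, had differences of -0.37 ± 0.18 and -0.13 ± 0.10. Ucp2, a mitochondrial carrier also found in leukocytes, rose by 1.82 ± 0.21, and the hexokinase Hk1 by 0.71 ± 0.13. In the lists of glycolysis, fatty acid oxidation, atrophy, p53 targets and metalloproteinases 3 of 29, 1 of 23, 1 of 25, 2 of 15 and 1 of 24 rose. These shares are 10.3%, 4.35%, 4.0%, 13.3% and 4.17%, where 4.87% of all probe sets rose. Pfkp and Pgam1 of glycolysis, Fas of the p53 targets and Mmp2 of the metalloproteinases lost their calls in 1, 5, 5 and 4 alternatives.

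Of the matrix list 0 of 37 rose and 0 fell, with a median of 0.32, against 1 to 3 that rose in 6 of the alternative fits or with an array left out. Col1a1 read 11.08, 10.26 and 11.15 with cobalt and 10.48, 10.15 and 10.33 with tantalum (0.51 ± 0.25), so the groups overlap, and Dcn had a difference of 0.29 ± 0.19. In the lists for endothelium, Schwann cells, fat cells and daily rhythm 0 genes rose and 0 fell in limma, while 1 to 2 fat cell genes and 1 Schwann cell gene passed in some alternative fits. For 9 of 15 daily rhythm genes, however, all 3 cobalt arrays lay below all 3 tantalum arrays, where 15.1% of all probe sets did so. The tendon, red cell and ribosomal lists had 1 gene each that rose, of 15, 11 and 22 measured. These shares are 6.67%, 9.09% and 4.55%, where 4.87% of all probe sets rose. Rpl3, the ribosomal one, rose by 1.12 ± 0.21, and Hbb and Hba-a1, which would mark blood, had differences of 0.18 ± 0.24 and -0.02 ± 0.21. For 17 of the 22 ribosomal genes, however, the arrays separated fully with cobalt on top, as 11.1% of all probe sets did. The ribosomal list mean was 10.75, 10.74 and 10.82 with cobalt and 10.54, 10.58 and 10.60 with tantalum, higher on every cobalt array. Whether that list differed as a whole was not tested. The skin list had 1 gene that fell, Ivl (-0.56 ± 0.18), which did not pass without any 1 of 5 of the arrays.

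Decreases were small. The 135 probe sets that fell had a median difference of -0.458 and a median level of 7.66 with tantalum and 7.13 with cobalt, and 83 have a symbol. Of the 135, 26 lay in the dimmest 30% of the array with tantalum. That is a smaller share than the 300 of the 1119 that rose or the 7069 of all 22954 probe sets. Without cobalt replicate 3 the number was 39, and without tantalum replicate 1, 2 or 3 it was 85, 88 and 69. Of the 12 named genes with the largest decreases, 6 are olfactory or vomeronasal receptor genes. The share of this large family among all named genes was not counted, so the 6 cannot be read as an excess. Apart from Or6b9 they were unstable: Or4c3, Or5af1c, Or1l8, Or13l2 and Vom2r49 lost their calls in 5, 4, 7, 4 and 6 alternatives. Or6b9 read 4.42, 4.32 and 4.37 with cobalt and 5.22, 5.06 and 5.63 with tantalum (-0.93 ± 0.21, adjusted p = 0.000953). Plcl1, a catalytically inactive relative of phospholipase C, read 5.59, 5.57 and 5.54 against 6.22, 6.31 and 6.34 (-0.72 ± 0.18, adjusted p = 0.00356). Or6b9 and Plcl1 passed with each of the 6 arrays left out in turn. Nmrk1, which makes NAD from nicotinamide riboside, fell by 0.68 on the log2 scale and did not pass without cobalt replicate 3; Spdya, Serpina12 and Grm5 fell by 0.69, 0.66 and 0.64 and each lost its call without at least 5 of the 6 arrays in turn, cobalt replicate 3 among them.

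The size of the difference at 3 months was tested against that at the other months. The contrast of cobalt minus tantalum at 3 months with its mean at 1, 6 and 12 months passed for 1183 probe sets (5.15%), 1064 higher (4.64%) and 119 lower (0.518%). At 1, 6 and 12 months 1447 (6.3%), 1334 (5.8%) and 1256 (5.5%) probe sets had an unadjusted limma p below 0.05 for cobalt against tantalum. Those shares are close to what this threshold gives with no difference at all. After adjustment 2 (0.00871%), 0 (0.0%) and 1 (0.00436%) probe sets differed. The probe sets that differed were Sarnp (-0.69 ± 0.13) and C1h9orf85 (-0.72 ± 0.13) at 1 month and Rab11b (0.61 ± 0.12) at 12 months, named after their values were seen. The contrast of 3 months with the other months gave 18 of 22 T cell surface genes, 16 of 28 NK genes, 15 of 23 B cell genes and 25 of 44 macrophage genes higher. It shares its arrays of month 3 with the comparison above.

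Levels by month show the size of that contrast. Hmox1 averaged 6.50, 9.79, 6.06 and 6.48 with cobalt at 1, 3, 6 and 12 months and 6.68, 5.97, 5.73 and 6.27 with tantalum (contrast 3.70 ± 0.35). Cr2 averaged 3.85, 6.82, 3.70 and 3.94 with cobalt and 3.82, 3.92, 3.67 and 3.88 with tantalum (2.86 ± 0.20). At 1, 6 and 12 months cobalt minus tantalum was -0.18, 0.33 and 0.21 for Hmox1 and 0.03, 0.03 and 0.06 for Cr2. Klrk1 behaved likewise, at 4.09, 7.46, 4.02 and 3.93 with cobalt. Mt1 was less clear-cut, since tantalum muscle was itself at 7.99 at 1 month and cobalt muscle at 7.39.

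**Figure D4:**
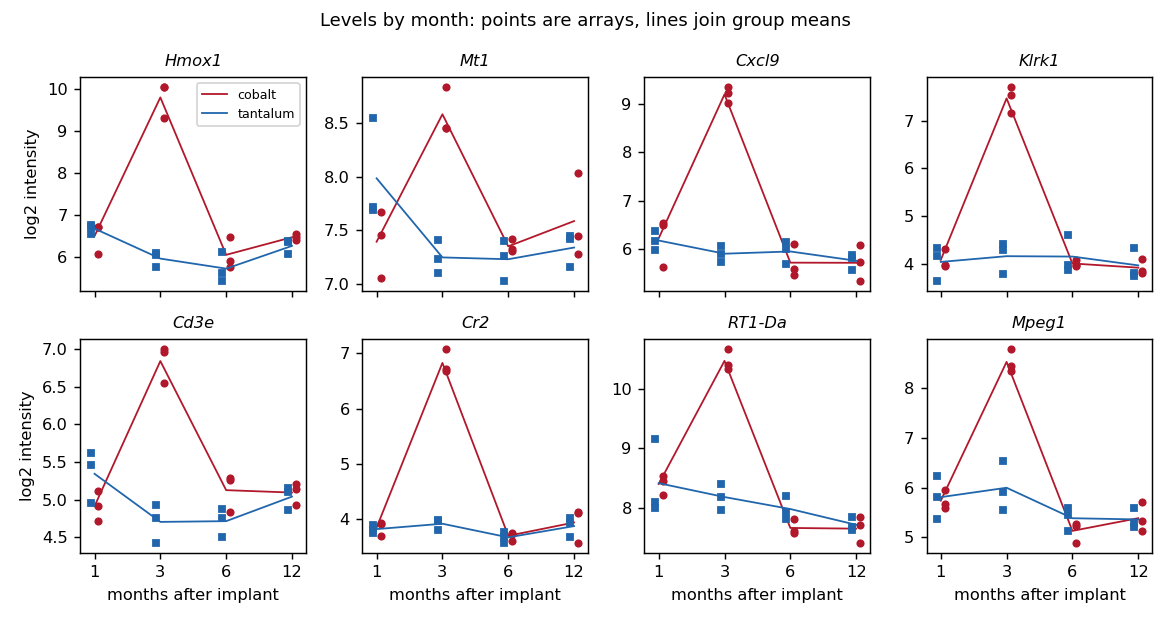
Log2 intensity (y axis) of 8 genes at 1, 3, 6 and 12 months (x axis, not to scale) with cobalt (red circles) and tantalum (blue squares); points are arrays and lines join group means. The cobalt arrays of 3 months stand above all other arrays plotted for Hmox1, Cxcl9, Klrk1, Cd3e, Cr2, RT1-Da and Mpeg1, whereas for Mt1 a tantalum array of 1 month, at 8.54, lies above the lower cobalt arrays.

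Nickel muscle at 3 months differed from tantalum muscle in 784 probe sets (3.42%), and the direct contrast of cobalt with nickel asks where these metals differ. It passed for 504 probe sets (2.2%), 387 higher with cobalt (1.69%) and 117 lower (0.51%). Members of several immune lists were higher with cobalt: 13 of 22 T cell surface genes, 30 of 40 of receptor signalling, 14 of 28 of the NK list, 9 of 23 of the B cell list, 9 of 16 class I genes and 13 of 29 interferon gamma targets. Of the macrophage list 5 of 44 were higher, and of the NRF2 list 0 of 35 differed. The cobalt arrays are shared with the comparison against tantalum.

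Cr2 with nickel read 3.94, 3.94 and 4.08, overlapping its tantalum values, and the contrast was 2.84 ± 0.17 (adjusted p = 6.73e-23). Trat1 (2.42 ± 0.21), Gpr174 (2.27 ± 0.19) and Cd3g (2.21 ± 0.22) also overlapped tantalum with nickel. Cxcl9 read 6.20, 6.81 and 6.35 with nickel (2.75 ± 0.24) and Klrk1 read 4.78, 5.33 and 5.36 (2.30 ± 0.23), with every nickel array above tantalum and below cobalt. Ubd (2.93 ± 0.39) and B3gnt5 (2.31 ± 0.21) complete the 8 highest. Hmox1 was high with both metals, reading 8.91, 10.03 and 8.87 with nickel, and the contrast of 0.52 ± 0.31 did not pass (adjusted p = 0.72). For Mpeg1, at 7.73, 7.95 and 7.71 with nickel, it did not pass either (0.73 ± 0.30, adjusted p = 0.313).

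Metallothioneins and contractile and matrix genes were among those lower with cobalt than with nickel. Mt1 read 9.89, 11.16 and 9.98 with nickel, above every cobalt array (-1.76 ± 0.24, adjusted p = 1.06e-07), and Mt2A differed by -1.13 ± 0.24. Embryonic and cardiac contractile genes that regenerating fibres use were lower with cobalt: Tnnt2 by -1.95 ± 0.24, Myh3 by -1.70 ± 0.21, Actc1 by -1.49 ± 0.35 and Myl4 by -1.39 ± 0.22. Myh3 read 10.89, 10.29 and 10.82 with nickel, while cobalt and tantalum overlapped. The matrix genes Sfrp2 (-1.84 ± 0.34), a secreted Wnt modulator, Tnn (-1.42 ± 0.31), a tenascin, and Vcan (-1.29 ± 0.26), a proteoglycan, complete the 8 lowest. In the lists, 6 of 37 matrix and 5 of 26 regeneration genes were lower with cobalt and 0 higher.

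**Figure D5:**
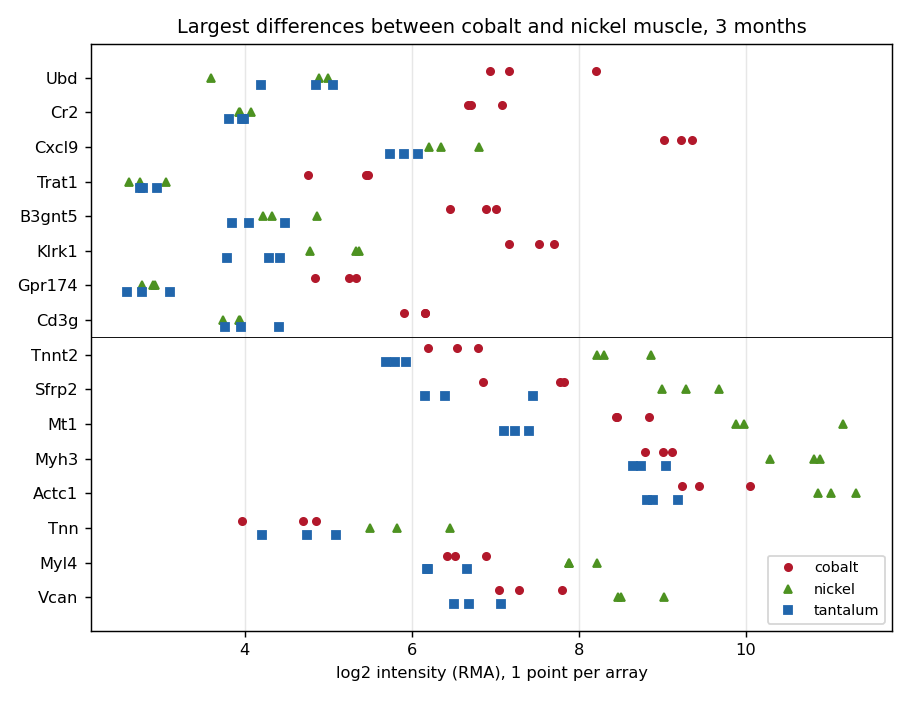
Log2 intensity (x axis) on each array of cobalt (circles), nickel (triangles) and tantalum (squares) muscle at 3 months for the 8 genes most above and the 8 most below nickel in cobalt muscle (y axis, split by a line). For Cr2, Trat1, Gpr174 and Cd3g the nickel and tantalum arrays overlap, and Tnnt2, Myh3 and Myl4 lie apart from both other groups with nickel.

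Against the mean of the 6 other metals at 3 months, a reference without the tantalum arrays and with 18 arrays, 2205 probe sets differed (9.61%), 1742 higher (7.59%) and 463 lower (2.02%). Cxcl13 stood at 5.26 ± 0.51, above its 3.82 against tantalum, and Ptprc at 3.86 ± 0.25, Hmox1 at 3.55 ± 0.23, Cxcl9 at 3.43 ± 0.19, Cd53 at 3.36 ± 0.21, Klrk1 at 3.34 ± 0.17, Il7r at 3.11 ± 0.19 and Cd37 at 3.07 ± 0.17. Of the macrophage list 34 of 44 were higher here, of the T cell surface list 18 of 22 and of the type I interferon list 21 of 33. Hmox1 had an order among metals, with cobalt at 9.79 ± 0.43 (SD, n = 3), nickel at 9.27 ± 0.66, iron at 7.39 ± 0.98 and the remaining 6 groups, tantalum included, between 5.72 and 6.20. Cobalt and nickel did not differ beyond their spread, and Cr2 at 6.82 ± 0.23 had no other group above 4.22. The 8 lowest in this contrast were the olfactory receptor genes Or2l13c, Or13l2, Or52j3b and Or5b96, together with Npr3, RGD1564712, Clec4m and Cfap210, at -0.76 to -0.60. Of these 8, Or13l2 and Npr3 also fell against tantalum, and each of the calls was lost without cobalt replicate 2 and without tantalum replicate 2.

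The spread between pools was uneven. Among the 1119 probe sets that rose, cobalt replicate 3 was the highest cobalt array in 60.3% and cobalt replicate 2 the lowest in 52.5%, where all tested probe sets gave 32.3% and 31.0%. Tantalum replicate 3 was the lowest tantalum array in 42.0%, against 32.3% over all. Leaving out cobalt replicate 3 left 874 probe sets, of which 852 were among the 1254, and leaving out tantalum replicate 3 left 984, of which 940 were. Of 308 genes that belong to a list or are named here and passed, 221 passed under every alternative that included them, at most 13 per gene. The fit without the dimmest 30% of probe sets included only 204 of the 308, so the rest were not tried there. Leaving out cobalt replicate 3 cost the most, 54.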

How the data were processed

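RNA pooled from 2 to 3 rats was hybridised to Clariom S Rat arrays, 105 in 35 groups of 3. The authors deposited log2 expression values made by RMA in the R package oligo (R 4.0.1), per the submitters' processing notes; whether all arrays were processed together is not given in the sources used here. No further scaling was applied. Of 22977 probe sets 23 controls were left out. Symbols came from the platform annotation, updated through RefSeq: 14855 probe sets have 1 symbol and 8099 none here, and 3 genes have 2 probe sets, of which the brighter was used.

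One mean per group was fitted on all 105 arrays with limma 3.58.1 (R 4.3.3), with 70 residual and 7.25 prior degrees of freedom, and tested two-sided with Benjamini-Hochberg adjustment over 22954 probe sets in each of 4 comparisons. The other 3 were the effect at 3 months against other months, cobalt against nickel, and cobalt against 6 other metals; all 4 share the cobalt arrays. An exact permutation test of 3 against 3 arrays cannot go below 0.1. The precision is limited by 3 arrays a group. Named genes are the 20 highest and 12 lowest passing genes without overlap of arrays, the 8 highest and 8 lowest of each other comparison, and for each list up to 6 members of smallest adjusted p and its defining members. The members and lists were chosen with earlier results of these data known. Same-numbered cobalt and tantalum arrays of 3 months, as deviations from their group means, correlated at -0.065, 0.016 and 0.029. Replicate numbers were therefore not treated as pairs in the main fit. The arrays of other months and metals, which also enter the error of the fit, were not checked in this way. Alternatives were a replicate block, leaving out each array or dim probe sets, a second quantile normalization, trend and robust variances, array weights, fewer arrays, another reference and a fold minimum.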

Additional observations from a re-analysis of the deposited data

Results flagged for a closer look

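The cobalt effect at 3 months differed from its mean at 1, 6 and 12 months for 1183 probe sets by limma's interaction contrast, with adjusted p below 0.05 over 22954 probe sets. The 8 named genes with the largest positive contrasts were Cxcl13 (4.02 ± 0.78 on the log2 scale), Ptprc (3.74 ± 0.38), Hmox1 (3.70 ± 0.35), Cxcl9 (3.37 ± 0.28), Klrk1 (3.34 ± 0.26), Slpi (3.17 ± 0.29), Cxcl11 (3.07 ± 0.23) and Klrc3 (3.01 ± 0.22). The 8 with the largest negative contrasts were Nmrk1 (-0.95), Or13c3g (-0.93), Or13l2 (-0.89), Or56b2b (-0.88), Or5af1c (-0.87), Or6b9 (-0.87), Or52b2 (-0.81) and Gpr101 (-0.81). Of these, 6 are olfactory receptor genes, whose probe sets may cross-hybridise, which was not tested. Their share among all named genes was not counted. Each month is a separate set of rats, and a shared handling of the 3 cobalt pools of month 3 cannot be told apart from the month.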

How the results depend on the processing

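None of the 308 listed or named genes that passed changed direction under any alternative that included it, at most 13 per gene. The 1254 probe sets that differed between cobalt and tantalum became 1995 with array weights, 2205 with the 6 other metals as reference and 462 with a 2-fold minimum; with an array left out they ranged from 874 to 1141, and with the 6 arrays alone 1040 passed, 923 of them shared. Increases numbered 1742 against the 6 other metals, 454 with the 2-fold minimum and 835 to 1035 with an array left out. Decreases were the least stable: 351 with the replicate block, 204 with a second quantile normalization, 556 with array weights, 204 with arrays of 3 months only, 463 against the 6 other metals, 8 with the 2-fold minimum and 39 to 106 with an array left out. Cobalt against nickel gave 853 with array weights and 376 to 407 with an array left out. Cobalt against the 6 other metals gave 3919 with array weights and 1330 to 1732 with an array left out, 1330 without cobalt replicate 3. The month contrast gave 842 to 1156 with an array left out. The causes were not tested. The replicate block gave 1646, 1556, 572 and 2817 probe sets in the 4 comparisons. The labels do not say what same-numbered arrays share beyond the number. Some values did go with it. At 12 months Rpl3 was highest in replicate 3 with every metal measured then, as with cobalt (7.188, 7.403 and 7.675) and tantalum (7.383, 7.39 and 7.821). The median of the background probe sets was lower in replicate 1 than in replicate 2 with every metal measured at 6 and 12 months. At 6 months it was 3.89 and 4.22 with cobalt, and 3.91 and 4.18 with tantalum. At 1 and 3 months some metals went the other way. Whether same-numbered arrays form batches was not tested. Without the dimmest 30% of probe sets 999 passed, fewer by construction, and the T cell surface and NK lists then counted 11 and 3 genes that rose. In dim genes signal close to background limits what can be seen.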

Other observations

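Of the probe sets that rose, 324 have no gene symbol here. On all 105 arrays 377 probe sets carried exactly the values of another, in 175 distinct patterns, and 17 of them differed between cobalt and tantalum. Counting each pattern once gave 1244 probe sets in place of 1254. Among listed or named genes this touched 6, namely Or2l13c, Pdcd1, Slc2a3, Gzmc, Rfxap and Ftl1.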
